A study of Mus musculus with 18 samples.

Results

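The genes described here code for membrane carriers of glucose, lactate and related monocarboxylates, and amino acids. They were chosen by name, as every gene whose symbol was Slc2a, Slc3a, Slc7a, Slc16a, Slc38a or Slc43a followed by a number. The deposited table held 56 such genes of 28442, with 11 in Slc2a, 14 in Slc16a, 2 in Slc3a, 15 in Slc7a, 11 in Slc38a and 3 in Slc43a. Bulk RNA was sequenced from 6 non-tumoral livers and 12 advanced tumors of Alb-R26Met mice, and tumors were compared with livers. All mice of both groups were untreated males and carried Alb-Cre together with R26stopMet, a conditional mouse-human chimeric Met transgene at the Rosa26 locus. Cre was driven by the Alb promoter, which is active in hepatocytes, so the livers were also mutant and came from mice without tumors. Mice were F1 animals of a C57BL/6JRj and a 129S2/SvPasOrlRj parent. Livers came from mice 52 to 71 weeks old and tumors from mice 49 to 72 weeks old. With tumors 11 and 12 sharing a mouse, 17 mice gave the 18 samples. Sample names carried the tag E19 in 2 livers and 7 tumors and the tag E20 in 4 livers and 5 tumors, and the sources used here do not say what the tags mean.

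Glucose carriers of the Slc2a family move hexoses down their gradient, and Slc2a2 is the main one of hepatocytes, which both take up and release glucose. Slc16a carriers move lactate, pyruvate and ketone bodies together with protons, and some members move aromatic amino acids or creatine instead. Light chains of the Slc7a family exchange amino acids and many need a heavy chain, Slc3a1 or Slc3a2, to reach the membrane. Slc38a carriers bring in glutamine and other small neutral amino acids with sodium, which feeds ammonia handling and gluconeogenesis in liver.

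Values are TPM, which correct for transcript length, rounded to whole numbers by the authors and here divided by a factor per sample (scaled TPM). A listed 0 stands for any TPM that rounded to 0. Met was at 16.76 to 37.93 scaled TPM in livers and 71.67 to 152.18 in tumors without overlap, and its value could include reads of the transgene. Hepatocyte markers were high in both groups, with Alb at 20404 to 26443 in livers and 19959 to 44393 in tumors, and all 4 kidney tubule and all 4 muscle markers were listed at 0 in every sample. A pair of libraries stood apart. The gene Siglece held 82.86% of the total in tumor 2, 53.41% in tumor 11 and 17.86% to 41.3% in the other samples. The factor of tumor 2 was 0.1945, and 1 deposited TPM became 5.14 scaled TPM. In liver 1 Mup1, a urinary protein gene of hepatocytes, was at 179 scaled TPM, against 18097 or more in the other livers.

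Of the 56 carriers, 16 were listed at 0 in every sample and 31 passed the filter of at least 1 scaled TPM in at least 6 samples. In tumors 4 of the 31 were higher and 6 lower (limma, Benjamini-Hochberg adjusted p under 0.05 over 11708 genes). That is 12.9% higher and 19.4% lower, where 9.77% of all genes tested were higher and 9.28% lower. The median difference was -0.06 on the log2 scale for the carriers and -0.06 for all genes tested. In scaled TPM only Slc7a7 had every tumor above every liver, which held for 2.18% of all genes tested. No carrier had every tumor below every liver, which held for 0.982%. In deposited TPM the Slc7a7 value of tumor 2 did not lie above the livers. The genes higher in tumors were Slc16a6, Slc7a7, Slc16a1 and Slc16a11, and those lower were Slc16a10, Slc7a2, Slc2a2, Slc38a4, Slc2a9 and Slc38a3. Leaving out 1 sample at a time gave 4 to 5 higher and 2 to 6 lower carriers, with 2 lower without liver 6 and 3 without liver 4. Without liver 1 and tumor 2, 6 were higher and 7 lower, the additions being Slc3a2 and Slc7a1 (higher) and Slc43a3 (lower). Without any scaling between samples, 2 were higher and 2 lower. The share of all genes called in these alternative fits is not given here, so their counts are not read as results about the carriers. In bulk tissue, fewer cells of a type and less RNA per cell cannot be told apart.

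**Figure D1:**
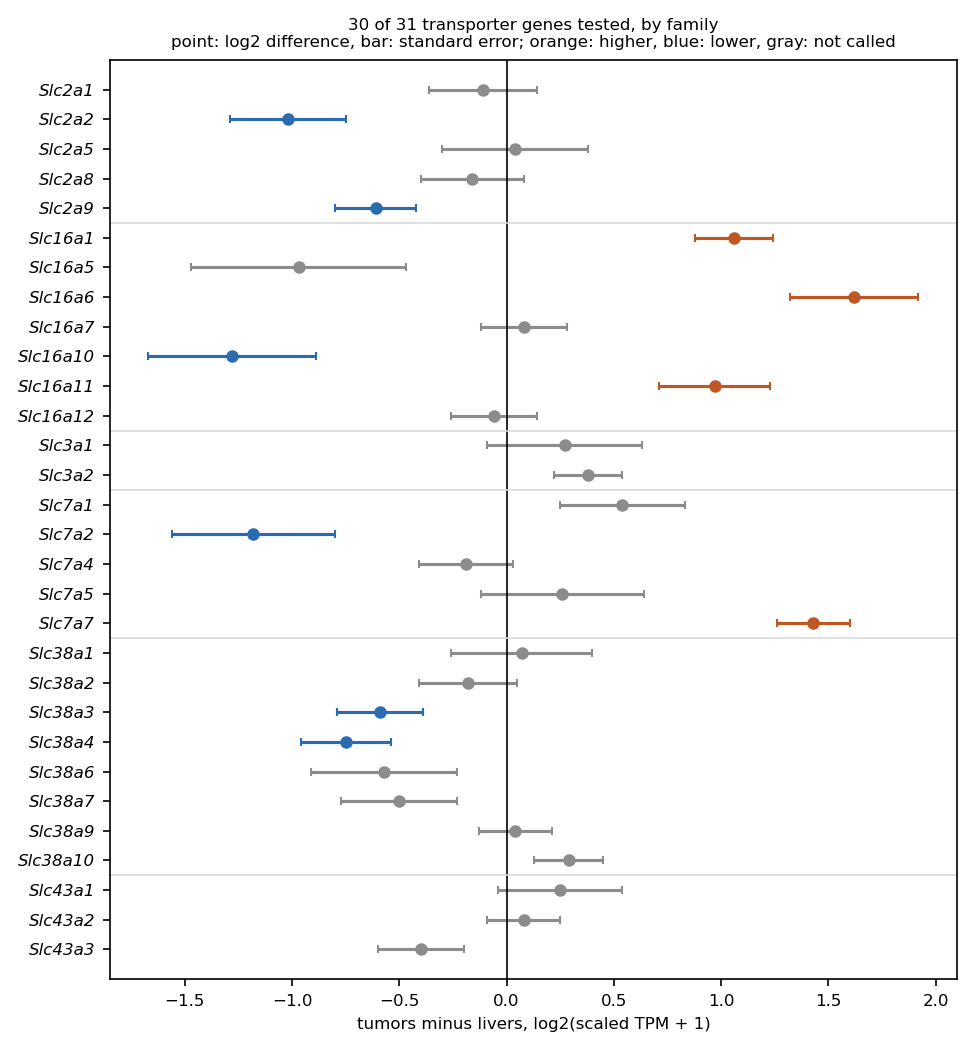
Tumor minus liver difference on the log2(scaled TPM + 1) scale for 30 of the 31 carriers tested, ordered by family, with the point at the limma estimate and the bar 1 standard error to each side. Orange genes were higher, blue genes lower and gray genes not called at an adjusted p under 0.05. Both called Slc2a genes and both called Slc38a genes lie left of 0, while the Slc16a family has 3 called genes on the right and 1 on the left.

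Promoters of 3 called carriers are shown, because each carries a match to a widely searched motif and the genes moved in different directions. RefSeq promoters (GRCm38.p6, 250 bases before to 50 after a transcription start) were found for 40 of the 56 carriers and for 7 of the 10 called ones. Motifs were searched on both strands and were picked after matches had been seen. Capitals mark an E-box, CACGTG, in Slc16a1 at chr3:104638414-104638713 on the plus strand. They mark a C/EBP-type motif, TTGCNNAA, in Slc7a7 at chr14:54410154-54410453 on the minus strand, which is 1 of 5 starts listed for that gene. They mark an AP-1 site, TGANTCA, in Slc2a9 at chr5:38483336-38483635 on the minus strand.
Slc16a1: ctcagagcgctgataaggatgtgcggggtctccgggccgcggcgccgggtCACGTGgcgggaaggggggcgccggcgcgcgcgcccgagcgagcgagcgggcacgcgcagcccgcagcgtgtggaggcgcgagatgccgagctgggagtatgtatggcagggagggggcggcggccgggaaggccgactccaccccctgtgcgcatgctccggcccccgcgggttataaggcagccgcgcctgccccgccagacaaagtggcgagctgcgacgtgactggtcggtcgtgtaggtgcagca
Slc7a7: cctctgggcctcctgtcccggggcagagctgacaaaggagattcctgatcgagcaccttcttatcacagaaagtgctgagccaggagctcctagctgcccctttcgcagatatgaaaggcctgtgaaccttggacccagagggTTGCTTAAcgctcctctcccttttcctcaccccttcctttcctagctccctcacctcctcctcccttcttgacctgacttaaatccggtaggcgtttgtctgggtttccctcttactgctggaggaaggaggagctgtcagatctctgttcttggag
Slc2a9: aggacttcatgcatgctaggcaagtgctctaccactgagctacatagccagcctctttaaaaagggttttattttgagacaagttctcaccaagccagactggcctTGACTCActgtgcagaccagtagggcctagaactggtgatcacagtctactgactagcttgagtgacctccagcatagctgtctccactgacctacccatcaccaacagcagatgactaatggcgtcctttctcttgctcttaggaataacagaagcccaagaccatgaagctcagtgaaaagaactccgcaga
The E-box began 200 bases before the start in Slc16a1, the C/EBP-type motif 107 before it in Slc7a7 and the AP-1 site 144 before it in Slc2a9. Each match was found in 1 of the 7 called carriers with an entry. Of the 21 tested carriers with an entry, called or not, 4 held the E-box, 2 the C/EBP-type motif and 5 the AP-1 site. A carrier was counted if any of its listed starts had a match, whereas the shares that follow count each promoter. Of all 32851 promoters, 7.15% held the E-box, 10.8% the C/EBP-type motif and 7.81% the AP-1 site. The amino acid response element TGATGNAAT, in 0.965% of all promoters, and the HNF1 palindrome, in 0.00913%, had no match in these windows of the called carriers.

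Among glucose carriers, the hepatocyte carrier Slc2a2 fell in tumors and the widely expressed Slc2a1 did not pass the test. Slc2a2 (Entrez 20526, chromosome 3 of GRCm38 from 28697903 to 28728361) was at 120.83 in the lowest liver, 128.62 at the median and 146.34 in the highest. In tumors it was at 29.13, 65.63 and 147.87. Livers lay close together, and 11 of 12 tumors lay below all of them, with tumor 7 above. The log2 difference was -1.02 (standard error 0.27, limma, adjusted p = 0.0106). It was -1.08 in E19 samples and -0.94 in E20 samples, where neither passed the test alone, and without scaling it was -1.21 (adjusted p = 0.0750).

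Slc2a2 made up 80.4% of the summed mean level of the family in livers and 72.9% in tumors. The sum over the 11 genes was 162 ± 14.4 scaled TPM (SD, n = 6) in livers and 96.9 ± 36.7 (SD, n = 12) in tumors. Slc2a9, which carries urate, ran from 8.50 over a median of 10.71 to 15.02 in livers and from 3.80 over 6.38 to 12.34 in tumors. The groups overlapped, with 8 tumors below all livers. Its log2 difference was -0.61 (standard error 0.19, limma, adjusted p = 0.0297), with -0.74 in E19 and -0.44 in E20 samples. The call was lost without liver 4, liver 5 or liver 6 (limma, adjusted p from 0.0541 to 0.103) and without scaling (0.199).

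The other glucose carriers did not pass. Slc2a1, the carrier found in most cell types, was at 4.72 to 11.26 in livers and 5.02 to 22.64 in tumors, with the highest value in tumor 10 (log2 difference -0.11, limma, adjusted p = 0.829). Slc2a8, a carrier of inner membranes, was at 4.39 to 17.87 and 5.14 to 12.04 (log2 difference -0.16). The fructose carrier Slc2a5 was at 1.0 to 2.37 in livers and 0 to 7.64 in tumors, where 5 tumors lay above all livers and 4 below (log2 difference 0.04). Slc2a3, a glucose carrier of neurons and leukocytes, was listed at 0 in all 18 samples.

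Among monocarboxylate carriers 3 of 8 tested rose and 1 fell, and the summed level of the family was 147 ± 19.9 scaled TPM (SD, n = 6) in livers and 149 ± 35.3 (SD, n = 12) in tumors. Slc16a1 (Entrez 20501, chromosome 3 from 104638664 to 104658462), a carrier of lactate, pyruvate and ketone bodies, was at 9.45, 13.36 and 17.87 in the lowest, median and highest liver. In tumors it was at 17.31, 30.34 and 44.41. All tumors but tumor 6 lay above all livers. The log2 difference was 1.06 (standard error 0.18, limma, adjusted p = 0.000219), with 1.15 in E19 and 0.90 in E20 samples. Without scaling it was 0.88 (limma, adjusted p = 0.140).

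Slc16a6, a carrier of ketone bodies and taurine, had the largest difference of the carriers tested. It was at 0.94, 1.35 and 5.86 in the lowest, median and highest liver, the highest being liver 1, and at 1.74, 8.07 and 12.67 in tumors. In 9 tumors the value lay above all livers, and tumor 10 was lowest. Tumors exceeded livers by 1.62 on the log2 scale (standard error 0.30, limma, adjusted p = 0.000652), with 2.02 in E19 and 1.48 in E20 samples, and every sample could be left out without losing the call.

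Slc16a11, a proton-coupled pyruvate carrier that is named here after its values were seen, was at 2.83, 4.81 and 10.05 in the lowest, median and highest liver. In tumors it was at 5.81, 11.41 and 20.03, and 7 tumors lay above all livers. On the log2 scale the difference was 0.97 (standard error 0.26, limma, adjusted p = 0.0106). It was 0.41 in E19 and 1.18 in E20 samples, of which only the second passed the test (limma, adjusted p = 0.464 and 0.0408), and the call was lost without scaling (0.135). Slc16a13, whose gene lies 0.375 kb from Slc16a11 on chromosome 11, did not pass the filter, and was above 0 in 3 livers and 8 tumors, with 2.61 scaled TPM at most.

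Slc16a10 (Entrez 72472, chromosome 10 from 40033532 to 40142270), the carrier of aromatic amino acids, was at 29.04, 34.47 and 37.93 in the lowest, median and highest liver. In tumors it was at 4.56, 11.24 and 94.04. Of 12 tumors 11 lay below all livers, at 21.07 or less, and tumor 10 lay far above them. The log2 difference was -1.28 (standard error 0.39, limma, adjusted p = 0.0227), with -0.87 in E19 samples, where the test was not passed, and -1.70 in E20 samples. Without liver 6 the adjusted p was 0.0565.

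Other monocarboxylate carriers did not pass. The creatine carrier Slc16a12 was at 15.02 to 28.45 in livers and 10.28 to 31.26 in tumors (log2 difference -0.06, limma, adjusted p = 0.888). Slc16a7, a high-affinity pyruvate and lactate carrier, was at 18.99 to 42.47 and 20.56 to 50.59 (log2 difference 0.08). Slc16a5, named here after its values were seen, was at 32.22 in liver 1 and at 1.89 to 4.69 in the other livers, against 0 to 9.38 in tumors. Its log2 difference was -0.97 with liver 1 and -0.48 without it, and neither passed (limma, adjusted p = 0.188 and 0.491). Slc16a3, the lactate exporter of glycolytic cells, was listed at 0 in every liver and in 11 tumors, and was at 3.48 in tumor 10. Slc16a9, a carnitine carrier named after its values were seen, had a deposited TPM of 1 in all 6 livers and in 3 tumors and 0 in the other tumors, and did not pass the filter.

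**Figure D2:**
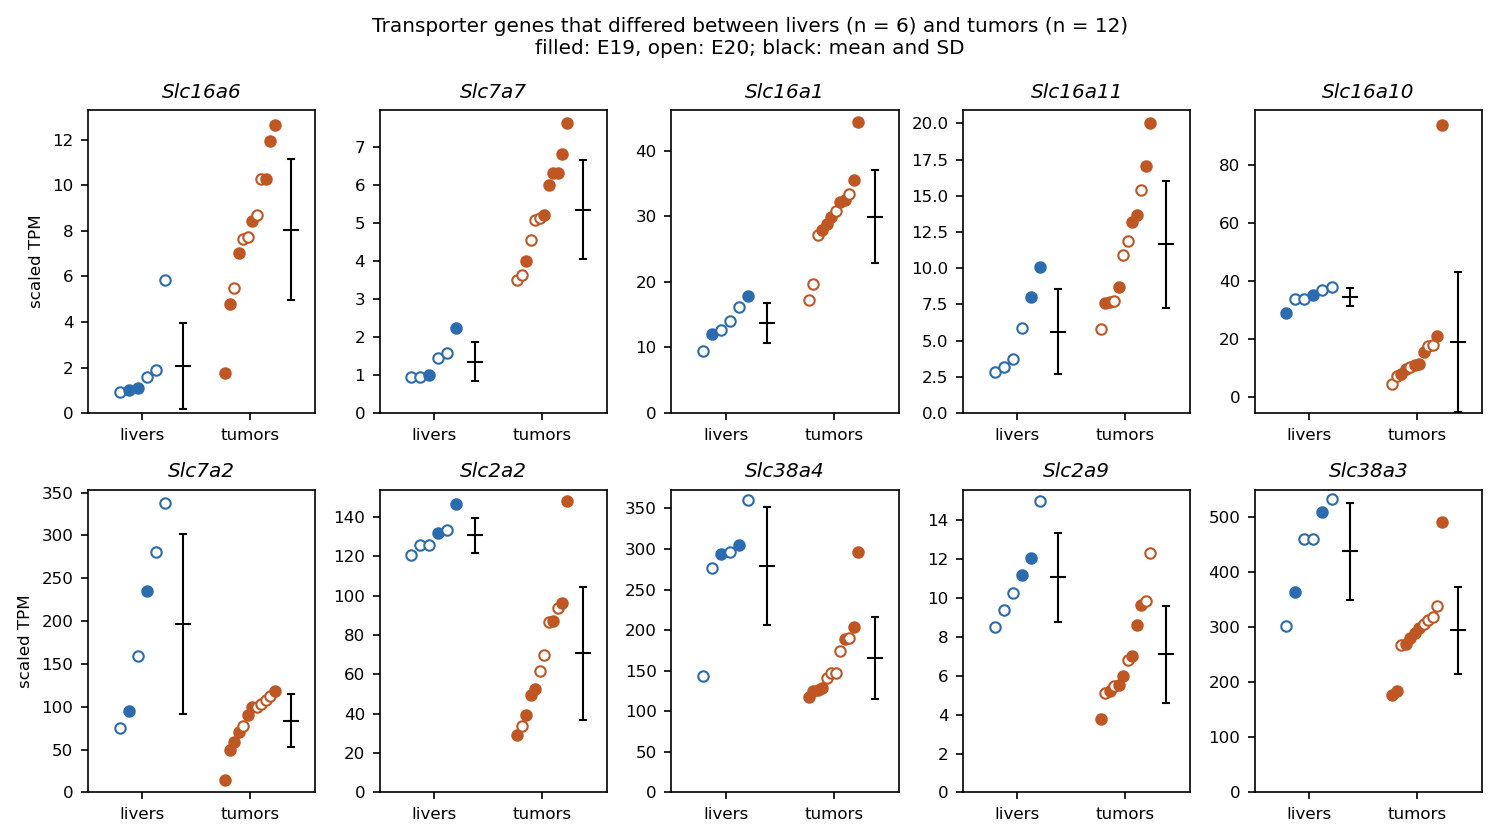
Scaled TPM of the 10 called carriers in each of the 6 livers (blue) and 12 tumors (orange), with filled points for E19 and open points for E20 samples and the mean and SD in black beside them. Slc7a7 is the gene without overlap. A single tumor passes the livers in Slc16a10 (94.04) and in Slc2a2 (147.87), where the other 11 lie below all livers. In Slc38a3 only 7 tumors lie below all livers, and the highest tumor is at 490.49.

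The heavy chains did not pass the test. Slc3a2, partner of most light chains, was at 24.11, 35.71 and 40.28 in the lowest, median and highest liver and at 29.77, 43.80 and 55.51 in tumors. In 8 tumors it was above all livers. Its log2 difference was 0.38 (standard error 0.16, limma, adjusted p = 0.0976), and it passed without tumor 1 (0.0479) or without tumor 2 (0.0460). Slc3a1, known as partner of the cystine light chain Slc7a9, was at 47.23 to 68.30 in livers and 11.32 to 120.53 in tumors, with 8 tumors above all livers and 2 below. The log2 difference was 0.27 with all samples and 0.50 without tumor 10, the lowest tumor. Slc7a9 itself was listed at 0 in every sample.

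Of the 15 light chains and cationic carriers in Slc7a, 5 were tested, of which 1 rose, 1 fell and 3 did not pass. Slc7a7 (Entrez 20540, chromosome 14 from 54369442 to 54420068), which with Slc3a2 exports cationic amino acids in exchange for neutral ones, was at 0.94, 1.23 and 2.23 in the lowest, median and highest liver. In tumors it was at 3.51, 5.18 and 7.64. All tumors lay above all livers in scaled TPM. In deposited TPM tumor 2 was at 1, as were livers 2, 3 and 4, while livers 1, 5 and 6 were at 2. The difference on the log2 scale was 1.43 (standard error 0.17, limma, adjusted p = 3.06e-06), with 1.49 in E19 and 1.27 in E20 samples, and it passed in both tags and without scaling (1.32). Of macrophage markers 0 of 4 tested passed, and their sum was 37.5 to 136 scaled TPM in livers and 25.7 to 121 in tumors. Of Kupffer cell markers 2 of 4 tested were lower in tumors, with sums of 32.8 to 99.4 in livers and 2.53 to 63.3 in tumors. Of endothelial markers 2 of 5 rose, Pecam1 (log2 difference 1.15, all tumors above all livers in scaled TPM) and Cdh5 (0.93). The lowest tumor for Pecam1 was tumor 2 at 5.14, which is 1 deposited TPM, against 4.47 in the highest liver, so rounding could hide an overlap. Of fibroblast and stellate cell markers 3 of 6 rose and 2 fell (Dcn, -1.30, and Lrat, -1.11). Those that rose were Col1a1, Col1a2 and Col3a1 (2.15, 1.40 and 1.56), with marker sums of 46.1 to 73.7 in livers and 32.5 to 133 in tumors, and endothelial sums of 13.2 to 43.2 and 20.0 to 195. Of 2 cholangiocyte markers tested Spp1 rose (4.45, without overlap) and Sox9 did not pass (0.45, limma, adjusted p = 0.315). Krt19, Krt7 and Epcam did not pass the filter. The sums were higher in all tumors (58.1 to 920) than in all livers (median 15.3), and were mostly Spp1, which alone was at 52.28 to 906.88 in tumors. The part of these cell types in the carrier levels was not tested.

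Slc7a2, the arginine and lysine carrier of liver, held 97.1% of the summed level of the family in livers and 88.1% in tumors. It was at 74.70, 196.94 and 337.20 in the lowest, median and highest liver and at 13.93, 95.11 and 118.41 in tumors. Livers were spread widely, with livers 1 and 5 inside the range of the tumors, and 4 tumors lay below all livers. On the log2 scale tumors differed by -1.18 (standard error 0.38, limma, adjusted p = 0.0347), with -1.23 in E19 and -0.88 in E20 samples. Without liver 2, 3, 4 or 6 or tumor 5 or 9 the adjusted p was 0.0518 to 0.109 in limma, and without scaling it was 0.0616. With the tag as a covariate the difference was -1.04 and missed the threshold (limma, adjusted p = 0.0571), as it did within E19 (0.236) and within E20 samples (0.288).

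The remaining Slc7a genes were low. Slc7a5, the carrier of leucine and other large neutral amino acids, was at 0.79 to 4.72 in livers and 0.70 to 13.06 in tumors, with the highest value in tumor 10 (log2 difference 0.26, limma, adjusted p = 0.703). Without liver 3 this was 0.50, and without tumor 10 it was 0.05. The arginine carrier Slc7a1 was listed at 0 in 4 livers and was at most 1.46 in the others, against 0 to 1.82 in tumors (log2 difference 0.54, limma, adjusted p = 0.220). Without liver 1 and tumor 2 it passed, at 0.86 (limma, adjusted p = 0.0294). Slc7a11, the cystine and glutamate exchanger, was listed at 0 in every liver and above 0 in 3 tumors, at 3.48 in tumor 10 and at 0.91 or less in the others. Slc7a6 and Slc7a8, light chains for cationic and for neutral amino acids, were at 1.58 and 2.20 at most in livers and at 1.0 and 1.20 at most in tumors.

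Sodium-coupled carriers of the Slc38a family had the highest summed level of the families, and 2 of 8 tested fell while none rose. The sum over the 11 genes was 843 ± 94.7 scaled TPM (SD, n = 6) in livers and 584 ± 109 (SD, n = 12) in tumors. Slc38a3, a glutamine carrier that works in both directions, was at 302.21, 459.58 and 531.66 in the lowest, median and highest liver and at 177.62, 294.29 and 490.49 in tumors. It lay below all livers in 7 tumors. On the log2 scale tumors differed by -0.59 (standard error 0.20, limma, adjusted p = 0.0389), with -0.62 in E19 and -0.48 in E20 samples. This call was lost in 10 of 18 fits that each left out 1 sample, namely livers 1, 3, 4 and 6 and tumors 3, 5, 9, 10, 11 and 12 (limma, adjusted p from 0.0511 to 0.0981), and without scaling (0.277). Averaging tumors 11 and 12, which share a mouse, also ended it (-0.56, limma, adjusted p = 0.0528), and it did not pass within E19 (0.255) or E20 samples (0.343).

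Slc38a4 (Entrez 69354, chromosome 15 from 96994816 to 97055956), which carries alanine and other small amino acids in liver, was at 143.53, 294.97 and 360.81 in the lowest, median and highest liver. In tumors it was at 117.82, 147.12 and 296.01. Livers 2 to 6 were at 276.60 or more, a level that tumor 4 reached and the other tumors, at 203.54 or less, did not. Liver 1 was the lowest liver, and 5 tumors lay below it. The log2 difference was -0.75 (standard error 0.21, limma, adjusted p = 0.0155), with -0.85 in E19 and -0.68 in E20 samples. It missed the threshold without liver 3 (limma, adjusted p = 0.0513) and without scaling (0.155).

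Slc38a1, Slc38a2 and Slc38a4 are neighbors on chromosome 15, with 44.0 and 295 kb between them. Slc38a2, an amino acid carrier that cells raise when starved of amino acids, was at 17.87 to 60.45 in livers and 21.35 to 41.46 in tumors, with a log2 difference of -0.18 (limma, adjusted p = 0.663). Slc38a1, a glutamine carrier, was at 0.79 to 1.46 in livers and at 0 to 5.14 in tumors (log2 difference 0.07). The highest value was that of tumor 2, whose deposited TPM was 1, as in livers 2 to 6. Slc38a9, the lysosomal arginine carrier that informs mTORC1, was at 3.01 to 5.67 and 3.16 to 7.26 (log2 difference 0.04). Slc38a5, another glutamine carrier, was listed at 0 in every sample.

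None of the 3 Slc43a genes passed (limma, 0 of 3, with 0 at an unadjusted p under 0.05). Slc43a1, a carrier of branched-chain amino acids, was at 0.94 to 6.70 in livers and 1.27 to 8.20 in tumors (log2 difference 0.25), and the difference was 0.46 without liver 5. Its relative Slc43a2 was at 3.95 to 5.63 and 2.61 to 8.48 (log2 difference 0.08). Slc43a3, a purine carrier whose gene lies 73.0 kb from Slc43a1 on chromosome 2, was at 4.39 to 12.28 and 3.48 to 10.28 (log2 difference -0.40, limma, adjusted p = 0.192). Without liver 1, the lowest liver, its log2 difference was -0.57 and passed (limma, adjusted p = 0.0348).

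**Figure D3:**
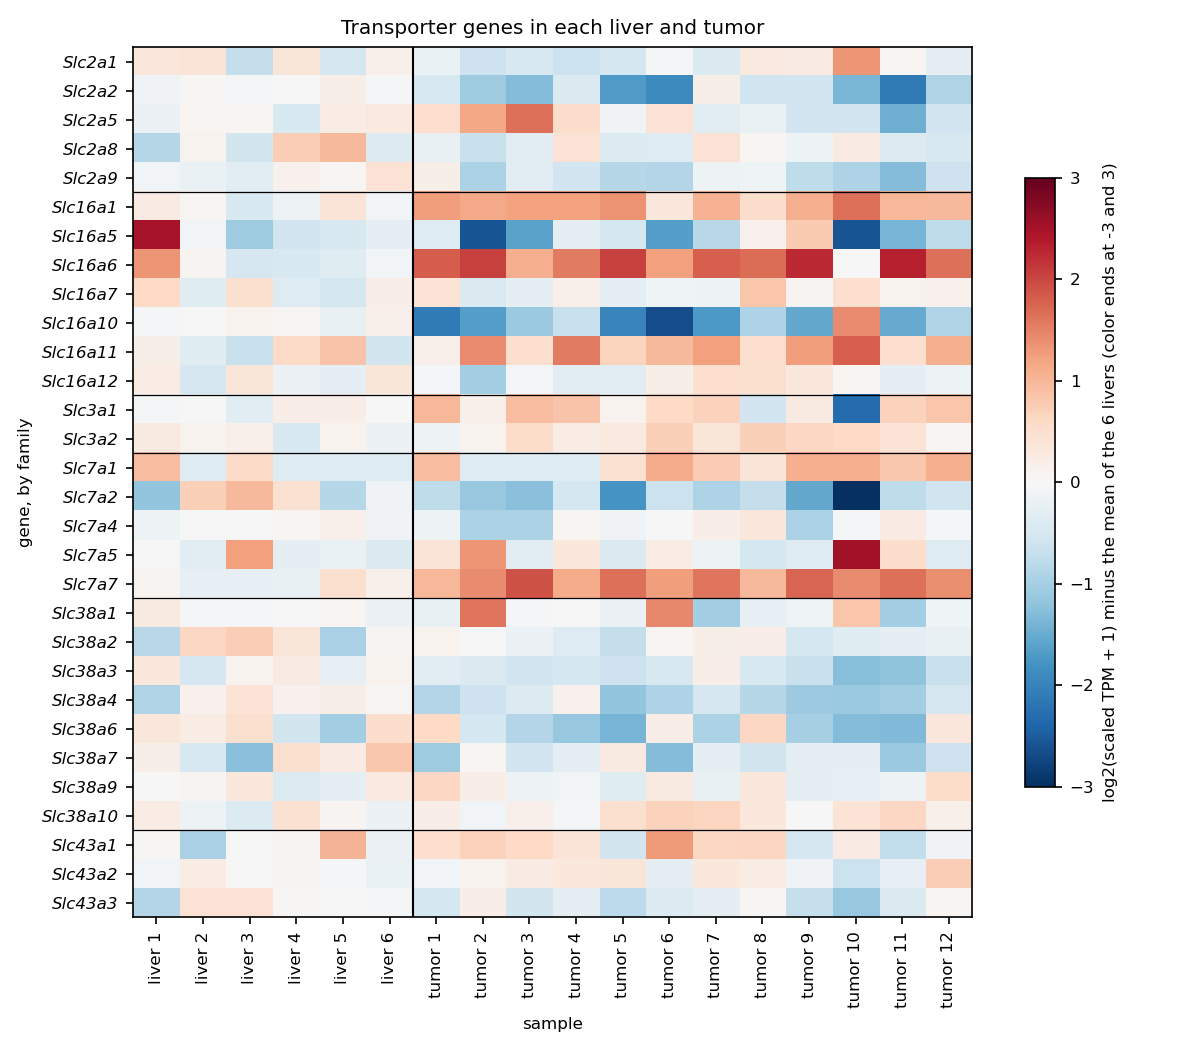
Level of 30 of the 31 tested carriers in each sample as log2(scaled TPM + 1) minus the mean of the 6 livers, with genes in rows by family and samples in columns. Tumor 10 holds the highest tumor value of Slc16a10 (94.04), Slc16a1 (44.41), Slc2a1 (22.64) and Slc7a5 (13.06) and the lowest of Slc7a2 (13.93) and Slc3a1 (11.32).

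Tumors differed among themselves in these carriers, as they did in all genes tested. Of 31 carriers, 19 had a larger SD of log2 values among tumors than among livers (61.3%), against 72.1% of all genes tested. Median SDs among tumors and among livers were 0.47 and 0.37 for the carriers and 0.49 and 0.35 for all genes tested. Tumor 10 was the highest or the lowest tumor in 11 of 31 carriers (35.5%) and in 21.6% of all genes tested. It was the highest in Slc16a1, Slc16a10, Slc16a11, Slc2a1 and Slc7a5 and the lowest in Slc16a6, Slc38a3, Slc3a1, Slc43a2, Slc43a3 and Slc7a2. That tumor also had the lowest hepatocyte marker sum (32900 scaled TPM, with 59800 at the tumors' median) and the highest macrophage marker sum (121), and their part in its carrier values was not tested. Tumor 2 was extreme in 6 of 31 carriers (19.4%) but in 60.6% of all genes.

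Differences were also computed within each tag, since tags split both groups. Of 26 carriers tested in E19 and in E20 samples, 20 had the same sign in both, among them all 10 called over all samples. E19 samples alone gave 3 higher and 0 lower carriers, where 7.73% and 5.49% of all genes were called, with 10 of 26 at an unadjusted p under 0.05. E20 samples alone gave 3 higher and 1 lower, where 2.82% and 1.11% were called. Slc7a7 and Slc16a6 were called in both, Slc16a1 in E19 alone (limma, adjusted p in E20 0.0702) and Slc16a11 in E20 alone. Of the 6 lower carriers, Slc16a10 passed in E20 samples, and the other 5 passed in neither tag. The tumor-liver difference did not differ between tags for any of the 31 carriers by limma's interaction term (0 carriers, where 0% of all genes were called, with 2 carriers at an unadjusted p under 0.05, Slc2a8 and Slc43a1).

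**Figure D4:**
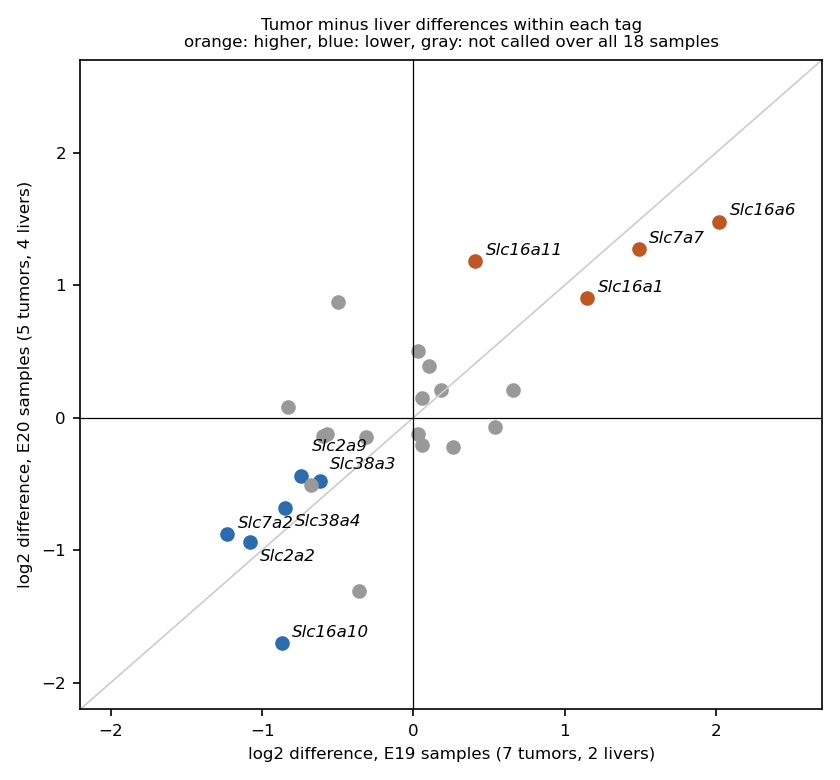
Tumor minus liver log2 difference of 26 carriers within E19 samples (horizontal axis, 7 tumors and 2 livers) against E20 samples (vertical axis, 5 tumors and 4 livers), with the gray line marking equal values. The 10 genes called over all samples are named and have the same sign on both axes.

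Genes that work with these carriers were counted from 3 lists, beside the 9.77% of all genes tested that were higher and 9.28% that were lower. Of glycolysis and lactate genes, 0 of 29 tested rose and 2 fell (6.90%), with a median log2 difference of -0.02. The 2 were Slc37a4, which brings glucose 6-phosphate into the endoplasmic reticulum for glucose release (median 88.56 scaled TPM in livers and 38.72 in tumors, log2 difference -1.09, limma, adjusted p = 0.00140), and Ldhd, which oxidizes D-lactate (51.78 and 18.88, log2 difference -1.33, adjusted p = 0.00677). Both missed the threshold in E19 samples alone (limma, adjusted p = 0.0863 and 0.0609). Without tumor 2, Gpi1 (0.64), Aldoc (0.74) and Pfkp (1.63) passed as higher (limma, adjusted p = 0.0184, 0.00535 and 0.0462). In that fit Slc37a4 and Ldhd stayed lower (limma, adjusted p = 0.00137 and 0.00911). The share of all genes called in that fit is not given here, so these calls are not read as a result about the list. Bsg, the partner that takes Slc16a1 to the membrane, was at 142.66 to 373.10 in livers and 92.53 to 689.59 in tumors and did not pass (log2 difference 0.39, limma, adjusted p = 0.416).

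Of genes for the amino acid response and glutamine use, 6 of 24 tested rose (25.0%) and 4 fell (16.7%), with a median log2 difference of 0.34. The serine synthesis genes Phgdh, Psat1 and Psph had log2 differences of 3.88, 3.36 and 1.84 (limma, adjusted p = 5.56e-07, 1.28e-06 and 0.000294). Phgdh was at 0 to 0.79 in livers and 4.01 to 80.98 in tumors, and Psat1 at 0 to 1.46 and 5.09 to 36.65. Both were without overlap in scaled TPM. For Psat1, tumor 2 was at 5.14, which is 1 deposited TPM, against 1.46 in liver 1. In deposited TPM that tumor did not lie above liver 1. Psph was at 1.88 to 8.79 in livers and 6.09 to 32.46 in tumors. Aldh18a1, the first enzyme of proline synthesis from glutamate, was at 0 to 2.20 and 1.0 to 10.28 (log2 difference 2.07, limma, adjusted p = 0.000172). Of amino acid carriers of other families, 4 of 17 tested rose (23.5%) and 5 fell (29.4%), with a median of -0.24. The mitochondrial carriers Slc25a13, which exports aspartate, and Slc25a15, which imports ornithine, had log2 differences of -1.34 and -1.19 (limma, adjusted p = 7.10e-06 and 0.000851). The betaine carrier Slc6a12 had a log2 difference of -1.0 and Slc66a1, a lysosomal exporter of cationic amino acids, one of 0.71 (limma, adjusted p = 0.00130 and 0.00167). Slc66a1 lost its call without scaling (0.56, limma, adjusted p = 0.347) and in E20 samples (0.49, 0.151), and Slc6a12 lost it in E20 samples (0.0738).

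Levels of partners were compared across the 12 tumors for the 2 pairs in which both genes were tested. Slc3a2 and its light chain Slc7a5 had a Pearson's r of -0.054 and a Spearman's rho of -0.238 (permutation p = 0.870 and 0.460, two-sided, adjusted over the 2 pairs 0.870 and 0.460). Slc16a1 and Bsg had an r of 0.449 and a rho of 0.413 (permutation p = 0.144 and 0.184, adjusted 0.288 and 0.368). Neither passed. Without the 2 tumors farthest from the median of the first gene, r was 0.093 and 0.511, and within the 7 E19 tumors it was 0.277 and 0.628 (permutation p = 0.637 and 0.146). The 5 E20 tumors are too few for a correlation. Without tumor 2, r of Slc16a1 and Bsg was 0.665 (permutation p = 0.0309, unadjusted, 11 tumors) and rho was 0.536 (permutation p = 0.0944).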

How the data were processed

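Poly-A RNA of 6 livers and 12 tumors was sequenced paired end. Per the study's methods, the authors aligned reads to GRCm38, used Salmon for quantification and normalized the results to TPM. In the deposited table each value is a whole number, treated here as a score that holds TPM rounded by the authors, because 882 of 900 unrounded TPM given with the study for 50 genes equal it after rounding. Such values keep no read depth, so no counting interval is given and tests for read counts were not used. All 28442 genes and 18 columns were read (0 columns left out, 8 lines with an extra separator).

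A factor per sample was computed as a trimmed mean of log ratios, without weights, trimming 30% by ratio and 5% by level, and values were divided by it. Genes with at least 1 scaled TPM in at least 6 samples were fitted on log2(scaled TPM + 1) in limma 3.58.1 (R 4.3.3), letting the prior variance follow a trend, with Benjamini-Hochberg adjustment over the 11708 genes tested, at 0.05. A fold change on this scale understates the change of low genes. Correlations were tested by 100000 permutations (Python 3.11.15, numpy 2.4.6, scipy 1.17.1, pandas 2.3.3). Figures used matplotlib 3.10.9. The fit was tested on simulated data before use. Samples other than tumors 11 and 12 came from separate mice.

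The members, lists and tests were chosen with earlier results of these data known. Named were carriers called with a log2 difference of at least 1 in size, a fixed set of well-known carriers, and up to 4 called genes with the smallest adjusted p from each list, with Bsg. Slc16a5, Slc16a9, Slc16a11 and Slc16a13 were added after their values were seen, as were the settings without liver 1 and tumor 2, without tumor 2 for the partner pairs, and livers and tumors 1 to 6 without a block. Alternatives covered scaling, filter, pseudocount, tag, age, block, trend and samples left out. Genes were placed on GRCm38.p6 through their Entrez identifiers in RefSeq. Of the carriers tested, 1 is not reported here, although it entered the fits, counts and sums.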

Additional observations from a re-analysis of the deposited data

Results flagged for a closer look

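Of 40 named genes with a value above 0 in some liver, 9 had 1 of the 6 livers far from the rest. Chance gives about 1 in 20 for continuous values of genes picked without regard to them, which does not apply here in full, since Slc16a5 was named after its values were seen and low values are rounded. For each gene, the distance from an extreme liver to its closest neighbor was taken as a share of the span of all livers, and Dixon's 95% limit for 6 samples, 0.625, was applied. In liver 1 this share was 0.908 for Slc16a5 (32.22 scaled TPM, with 1.89 to 4.69 in the others), 0.810 for Slc16a6 (5.86, with 0.94 to 1.88) and 0.768 for Slc7a8 (2.20, with 0.79 to 1.12). In the same liver it was 1.0 for Psat1 (1.46, with the others listed at 0) and 0.625, above the limit by less than the rounding, for Psph (8.79, with 1.88 to 4.47). In liver 3 it was 0.829 for Slc7a5 (4.72, with 0.79 to 1.46). In liver 5 it was 0.640 for Slc43a1 (6.70, with 0.94 to 3.01) and 0.787 for Bsg (373.10, with 142.66 to 191.84). In liver 6 it was 1.0 for Slc7a6 (1.58, with the others listed at 0). With 5 livers listed at 0, as in Psat1 and Slc7a6, the share is 1.0 by construction. Liver 1 held 5 of the 9, and it is the liver in which Mup1 was low.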

How the results depend on the processing

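The 4 higher and 6 lower carriers stayed within 1.5 times their number with median-of-ratios scaling, other filters and pseudocounts, tag or age as a covariate, no trend, and tumors 11 and 12 averaged, although Slc7a2 lost its call with the tag as a covariate and Slc38a3 with the average. The lower count fell to 0 in E19 and to 1 in E20 samples alone, where fewer samples entered. Without scaling, 2 were higher (Slc7a7 and Slc16a6) and 2 lower (Slc16a10 and Slc16a9, the latter at -0.75, limma, adjusted p = 0.0339), and the median log2 difference of all genes moved from -0.064 to -0.184. Leaving out 1 sample gave 2 to 6 lower carriers, with 2 without liver 6 and 3 without liver 4, and 4 to 5 higher ones. Same-numbered livers and tumors came from different mice, so the numbers do not pair samples by mouse. They deviated from their group means with correlations of -0.105 to 0.422 over 6 pairs (mean 0.178, and -0.0355 for other numbers). So few pairs cannot decide whether the numbers share anything else. With the replicate block, 3 were higher and 2 lower, as in the same 12 samples without the block (3 and 2). The count of carriers whose difference varied by tag was 0 in limma under every alternative run, with 0 to 3 at an unadjusted p under 0.05. For Slc16a1 and Bsg, r was 0.918 without scaling (permutation p = 0.000410) and 0.665 without tumor 2. The cause was not tested. Correlations of Slc3a2 with Slc7a6 and Slc7a11 were not run, since these light chains did not pass the filter. Rounding limits values near 1 TPM, above all in tumor 2.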
